A study of Homo sapiens with 12 samples.

Results

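Polyamines (putrescine, spermidine and spermine) are small cations that bind RNA and DNA and are needed for growth. Ornithine decarboxylase makes putrescine, and spermidine synthase and spermine synthase then add aminopropyl groups that come from decarboxylated S-adenosylmethionine. Antizymes bind ornithine decarboxylase and send it to the proteasome, and antizyme inhibitors release it. The acetyltransferase SAT1 marks spermidine and spermine for export or oxidation, and in cultured cells SAT1 has been linked to lipid peroxidation and ferroptosis, the iron-dependent cell death named in the title of the series.

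The 10 genes described here code for enzymes and regulators of this pathway: ODC1, AMD1, SRM and SMS (synthesis), OAZ1, OAZ2 and AZIN1 (antizymes and an antizyme inhibitor), and SAT1, SMOX and PAOX (acetylation and oxidation). They were chosen by symbol from the 31681 rows of the deposited expression table, and all 10 were found. The measured value behind the choice was the fall of SAT1 in U251TR against U251MG, known from an earlier analysis of these data. That fall, and the difference between the lines that contains it, are therefore given as descriptions with no test.

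RNA was sequenced from 12 libraries of human glioblastoma cell lines, 3 in each of 4 groups. U251MG and U87MG are long-established parental lines. U251TR and U87TR were derived from them in culture by repeated treatment with temozolomide, an alkylating drug used against glioblastoma, at doses raised step by step. Each parent had only 1 resistant line, so resistance and any other effect of deriving that line cannot be told apart. Nothing in the labels says that the 3 libraries of a group were separate cultures, so the p-values rest on the spread among libraries, which may be technical. The U87TR libraries carry codes from another number block than the other 9, and block and resistance cannot be told apart in the U87 comparison.

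Values are FPKM, fragments scaled to gene length and to the mapped total of the library. FPKM is a level per length, so levels of different genes may be set side by side. Libraries had 13135 to 14122 genes at 1 FPKM or more. Read counts and sequencing depth are not known from these values, so no counting interval is given. U251MG replicate 2 stood apart from its group, with rank correlations across genes of 0.977 and 0.978 to the other U251MG libraries, which had 0.993 between them. U87MG replicate 3 had 0.983 and 0.987 to its group, against 0.993 between the other two. Of 7 glioma and astrocyte markers, VIM and CD44 were abundant in every library, while SOX2 and S100B were listed at 0 in every U87MG library and GFAP had a mean of 0.753 FPKM there. These markers also moved between the U251 lines: from U251MG to U251TR the mean of GFAP went from 22.83 to 396.2, NES from 195.6 to 42.63, SOX2 from 219.8 to 113.3, S100B from 9.87 to 1.89 and VIM from 1702 to 817.1 FPKM. CD44 had 395.7 and 476.4 FPKM and OLIG2 3.44 and 3.89 FPKM. From U87MG to U87TR the mean of CD44 went from 1045 to 506.9, VIM from 4917 to 4051 and NES from 7.79 to 25.48 FPKM. GFAP went from 0.753 to 1.75 and OLIG2 from 1.14 to 0.263 FPKM there, and SOX2 and S100B had 0.203 and 0.05 FPKM in U87TR. The summed level of 3 haematopoietic markers was at most 0.62 FPKM in any library. The sum of 2 endothelial markers was 6.11 to 8.72 FPKM in U251MG and 11.04 to 12.12 FPKM in U251TR, nearly all of it CDH5, and 0.09 to 0.27 FPKM in U87MG and U87TR. That of 3 epithelial markers was 54.26 to 71.32 FPKM in U251MG and 36.7 to 39.51 FPKM in U251TR, nearly all of it KRT18, and 1.11 to 2.45 FPKM in U87MG and U87TR. The part of these markers in the results was not tested.

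ODC1, the ornithine decarboxylase gene, fell in both resistant lines. In U251TR the spermine synthase gene SMS fell to 23.3% of its parental level, ODC1 to 40.1% and the S-adenosylmethionine decarboxylase gene AMD1 to 68.0%. In U87TR ODC1 fell to 44.4% and the spermidine synthase gene SRM to 70.6%, while SMS was at 102%. Percentages are fold changes on the log2(FPKM + 1) scale. In bulk RNA, fewer cells that express a gene and less of its RNA per cell cannot be told apart.

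**Figure D1:**
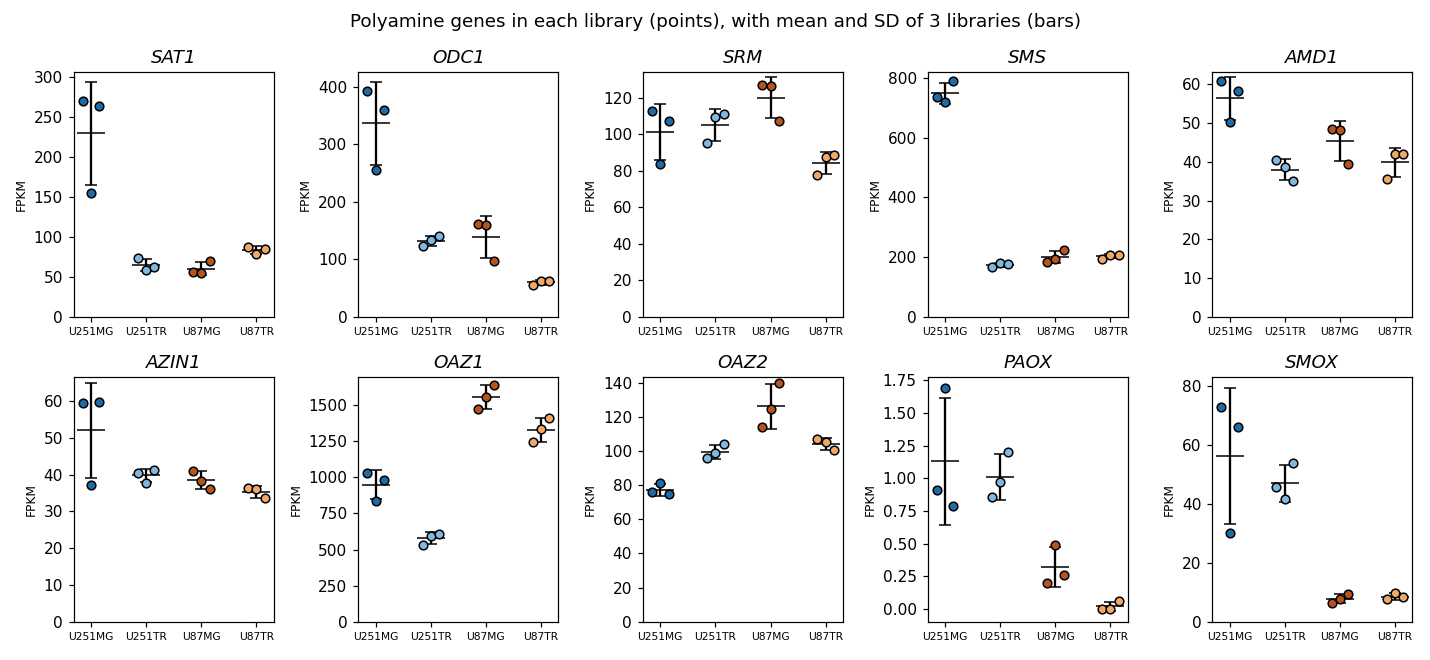
FPKM of the 10 polyamine genes in each of the 12 libraries (points), with the mean and SD of the 3 libraries of a group (bars); each panel has its own linear scale. SMS and SAT1 are higher in U251MG than in the other groups, ODC1 is lower in each resistant line than in its parent, and SMOX is lower in both U87 lines than in the U251 lines.

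A gene was tested where 3 or more libraries reached 1 FPKM, which held for 15449 genes and for 9 of the 10. These 9 were above 5 FPKM in every library, so none passed through 1 group alone. PAOX did not pass. Of the 8 with a test in U251TR, 4 were lower (ODC1, AMD1, SMS and OAZ1), where 19.6% of all genes tested were lower. OAZ2 was the 1 that was higher, where 33.6% of all genes were. Without U251MG replicate 2, AZIN1 and SMOX were lower as well. The share of all genes lower without that library is not given, so these calls have no background. Of 9 tested in U87TR, 3 were lower (ODC1, SRM and OAZ2), where 17.2% of all genes were lower, and none was higher, where 10.6% of all genes were. In that comparison 1 of the 9, SAT1, passed upward in a fit of the 6 U87 libraries alone. The share of all genes higher in that fit is not given. The median log2 fold change of the 9 was -0.56 in U251TR (-0.45 without SAT1), against 0.10 over all genes tested, and -0.18 in U87TR, against -0.05. The background moved with the scaling: in U251TR the median of all genes was 0.00 with median-of-ratios scaling, -0.01 with quantile normalization and 0.20 when rescaled to TPM. The share of all genes higher and lower was then 26.9% and 26.0%, 26.7% and 27.5%, and 39.4% and 15.3%. In U87TR the share higher and lower was 12.9% and 13.6% with quantile normalization.

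**Figure D2:**
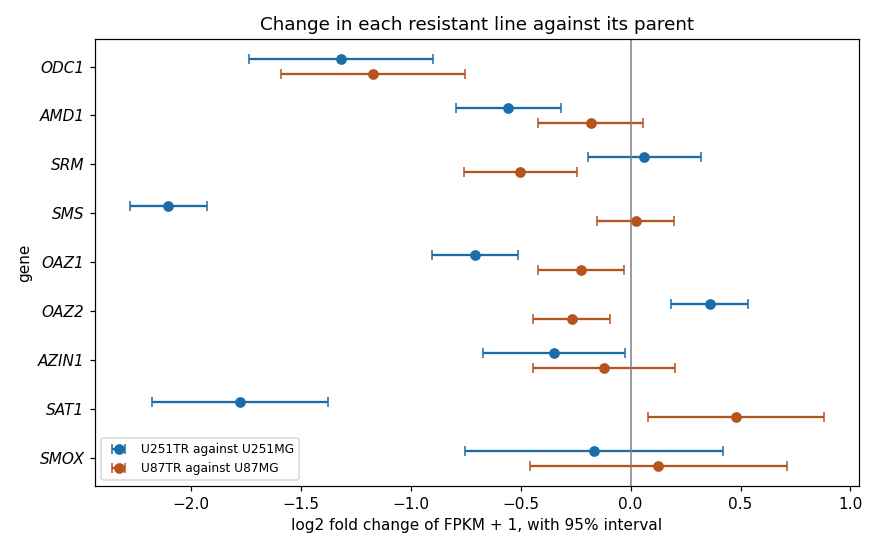
Log2 fold change of the 9 tested polyamine genes in U251TR against U251MG and in U87TR against U87MG, with 95% intervals from the fit of all 12 libraries. The intervals of ODC1 lie below 0 in both lines, that of SMS lies far below 0 in U251TR alone, and those of OAZ2 lie on opposite sides of 0. The SAT1 interval in U251TR is drawn as a description and not as a test, because SAT1 was chosen with that fall known.

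ODC1 codes for ornithine decarboxylase, the first enzyme of the pathway. It stood at 393.18, 254.83 and 359.57 FPKM in U251MG and at 122.83, 133.04 and 140.47 FPKM in U251TR. The U87MG libraries had 160.52, 158.6 and 96.38 FPKM and the U87TR libraries 54.93, 61.03 and 62.48 FPKM. In each line all 3 resistant libraries were below all 3 parental ones, and U251MG replicate 2 and U87MG replicate 3 were the lowest of their groups. Its log2 fold change was -1.32 in U251TR (SE 0.19), with an adjusted p of 0.000112 by limma. In U87TR the log2 fold change was -1.17 (SE 0.19, adjusted p = 0.000776). The difference between these changes, U87TR minus U251TR, was 0.15 and its 95% interval ran from -0.44 to 0.74 (adjusted p = 0.686), an interval that leaves room for unequal falls. The parents also differed: ODC1 was 2.44-fold lower in U87MG than in U251MG (adjusted p = 6.36e-05). The level in U251TR, 132.1 ± 8.86 FPKM (SD, n = 3), lay within the range of the U87MG libraries.

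AMD1 codes for S-adenosylmethionine decarboxylase, which makes the aminopropyl donor. Its level was 60.78, 50.2 and 58.21 FPKM in U251MG and 40.35, 38.61 and 34.95 FPKM in U251TR, with no overlap. The log2 fold change was -0.56 (SE 0.11, adjusted p = 0.00108). In U87MG it was 48.55, 48.31 and 39.5 FPKM and in U87TR 35.51, 42.06 and 42.13 FPKM. These groups overlapped, and the log2 fold change of -0.18 (SE 0.11, adjusted p = 0.25) did not pass.

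SRM codes for spermidine synthase. It ranged from 84.01 to 113.07 FPKM in U251MG and from 95.25 to 111.39 FPKM in U251TR. Its log2 fold change there was 0.06 (95% interval -0.20 to 0.32, adjusted p = 0.692), and its sign turned without U251MG replicate 2 (-0.068) and with median-of-ratios scaling (-0.075). In U87MG it stood at 127.17, 126.55 and 107.15 FPKM and in U87TR at 77.53, 87.41 and 88.53 FPKM. All U87TR libraries were below all U87MG libraries, and the log2 fold change there was -0.50 (SE 0.12, adjusted p = 0.00766).

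SMS codes for spermine synthase and was the most abundant synthesis transcript in every group. It stood at 734.9, 719.4 and 788.91 FPKM in U251MG and at 165.18, 178.33 and 176.21 FPKM in U251TR. U251MG replicate 2, which was low for ODC1 and SAT1, was close to its group here. The log2 fold change was -2.10 (SE 0.08, adjusted p = 1.48e-09), and over the 15 other settings it ranged from -2.24 to -1.99. U87MG had 182.98, 194.45 and 222.58 FPKM and U87TR 194.24, 206.96 and 206.72 FPKM, with a log2 fold change of 0.02 (95% interval -0.15 to 0.20, adjusted p = 0.878). The changes differed by 2.13 between the lines (SE 0.11, adjusted p = 5.4e-08). The parental U251MG was the group that stood apart: SMS was 3.73-fold lower in U87MG than in U251MG (adjusted p = 5.86e-10), and the other 9 libraries lay between 165.18 and 222.58 FPKM. Within a library the ratio of SMS to SRM was 7.47 ± 1.04 (SD, n = 3) in U251MG and 1.65 ± 0.0783 (SD, n = 3) in U251TR. In U87MG and U87TR it was 1.68 ± 0.344 and 2.40 ± 0.0904 (SD, n = 3).

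The start regions of 4 genes are shown because ODC1 and SRM are known target genes of the factor MYC, which binds the E-box CACGTG, and because SMS and SAT1 had the lowest log2 fold changes of the 10 genes in U251TR. Each is a window from 250 bases before to 50 after a gene's start, from RefSeq on GRCh38.p14, 5′ to 3′ along the gene. Of the 10 genes, 7 matched that table, with 10 windows. The E-box and the core of the antioxidant response element, TGACNNNGC, which the factor NRF2 binds, were searched on both strands, and matches are in capitals.
SAT1, chrX:23782923-23783222, plus strand: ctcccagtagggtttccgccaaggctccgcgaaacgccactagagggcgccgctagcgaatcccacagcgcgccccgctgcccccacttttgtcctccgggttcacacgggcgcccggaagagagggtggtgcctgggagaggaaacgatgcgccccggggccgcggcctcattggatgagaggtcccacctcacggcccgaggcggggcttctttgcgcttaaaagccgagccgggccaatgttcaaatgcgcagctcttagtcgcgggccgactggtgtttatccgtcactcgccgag
SMS, chrX:21940459-21940758, plus strand: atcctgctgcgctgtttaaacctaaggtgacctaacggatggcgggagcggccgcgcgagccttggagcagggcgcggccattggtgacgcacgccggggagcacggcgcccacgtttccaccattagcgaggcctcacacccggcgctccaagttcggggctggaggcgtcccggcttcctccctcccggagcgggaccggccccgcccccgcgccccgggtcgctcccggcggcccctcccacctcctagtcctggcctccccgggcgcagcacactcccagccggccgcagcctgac
ODC1, upstream start, chr2:10448278-10448577, minus strand: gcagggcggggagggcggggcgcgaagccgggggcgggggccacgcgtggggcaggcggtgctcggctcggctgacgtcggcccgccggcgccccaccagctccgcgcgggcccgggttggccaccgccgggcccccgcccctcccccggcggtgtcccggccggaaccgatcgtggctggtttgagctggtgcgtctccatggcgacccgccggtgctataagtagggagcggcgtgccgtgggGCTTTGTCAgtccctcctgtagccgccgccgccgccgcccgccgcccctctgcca
ODC1, downstream start, chr2:10447963-10448262, minus strand: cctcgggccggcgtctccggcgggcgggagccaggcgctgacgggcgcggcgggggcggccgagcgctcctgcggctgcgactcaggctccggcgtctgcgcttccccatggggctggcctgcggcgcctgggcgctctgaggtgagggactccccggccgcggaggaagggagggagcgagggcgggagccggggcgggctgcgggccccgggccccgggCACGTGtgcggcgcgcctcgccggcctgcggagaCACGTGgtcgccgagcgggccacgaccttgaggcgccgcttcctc
SRM, chr1:11059969-11060268, minus strand: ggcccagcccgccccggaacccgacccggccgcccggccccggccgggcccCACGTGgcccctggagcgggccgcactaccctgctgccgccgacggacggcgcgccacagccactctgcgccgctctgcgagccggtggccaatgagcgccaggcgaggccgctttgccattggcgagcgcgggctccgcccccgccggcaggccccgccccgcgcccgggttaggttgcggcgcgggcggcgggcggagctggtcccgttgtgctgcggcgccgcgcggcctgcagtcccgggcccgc

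The E-box was found in 2 of the 10 windows, against 7.26% of all 35116 windows in the table. The downstream ODC1 window held it at bases 222 to 227 and 256 to 261, counted from 1 at the left end, and the SRM window at bases 52 to 57. The antioxidant core was found in 1 of the 10 windows, against 13.3% of all windows. That match lay in the upstream ODC1 window at bases 246 to 254, on the opposite strand, and reads GCTTTGTCA along the gene. Neither motif overlapped the other, and the SAT1 and SMS windows held neither. A match is a run of letters and does not show that a factor binds there.

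In U251TR the antizyme gene OAZ1 fell and OAZ2 rose, and in U87TR OAZ2 fell while OAZ1 did not pass. OAZ1 and OAZ2 code for antizymes 1 and 2, which are made only when the ribosome shifts frame, a step that polyamines promote. OAZ1 was the most abundant of the 10 genes in each of the 12 libraries. It stood at 1029.57, 837.66 and 984.7 FPKM in U251MG and at 534.91, 595.17 and 609.33 FPKM in U251TR, with no overlap. The log2 fold change was -0.71 (SE 0.09, adjusted p = 3.69e-05). U87MG had 1473.4, 1557.07 and 1639.03 FPKM and U87TR 1245.02, 1332.36 and 1412.02 FPKM. The U87 groups did not overlap, but the log2 fold change of -0.23 (SE 0.09, adjusted p = 0.0807) did not pass.

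OAZ2 stood at 75.74, 81.11 and 74.72 FPKM in U251MG and at 95.59, 98.56 and 103.78 FPKM in U251TR, a rise of 0.36 on the log2 scale (SE 0.08, adjusted p = 0.00253). In U87MG it was 113.73, 124.5 and 139.85 FPKM and in U87TR 106.97, 105.28 and 100.26 FPKM. Its groups did not overlap in either line. The U87TR log2 fold change was -0.27 (SE 0.08, adjusted p = 0.0275), and this call was lost in 9 of 15 other settings, 5 of them without a single library, each of the 6 but U87MG replicate 1 (adjusted p from 0.0504 to 0.0903 over the 9). The ratio of OAZ1 to OAZ2 within a library was 13.59, 10.33 and 13.18 in U251MG and 5.60, 6.04 and 5.87 in U251TR. It was 12.39 ± 0.625 in U87MG and 12.79 ± 1.23 in U87TR (SD, n = 3), so U251TR was the group that stood apart.

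AZIN1 codes for antizyme inhibitor 1, a relative of ornithine decarboxylase without its activity. It was 59.33, 37.16 and 59.61 FPKM in U251MG and 40.32, 37.78 and 41.24 FPKM in U251TR. Replicate 2 of U251MG lay below all 3 U251TR libraries, and the log2 fold change of -0.35 (SE 0.15, adjusted p = 0.0653) did not pass. Without that library it was -0.57 (adjusted p = 4.85e-05). In the U87 lines AZIN1 was 38.46 ± 2.46 and 35.27 ± 1.52 FPKM (SD, n = 3; log2 fold change -0.12, adjusted p = 0.599).

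The balance of ODC1 against its regulators moved the same way in both lines. Within each library, the summed level of OAZ1 and OAZ2 was 2.81, 3.60 and 2.95 times that of ODC1 in U251MG and 5.13, 5.21 and 5.08 times in U251TR. It was 9.89, 10.6 and 18.46 times in U87MG and 24.61, 23.56 and 24.2 times in U87TR. Every resistant library was above every library of its parent, with U87MG replicate 3 nearest to the U87TR range. ODC1 over AZIN1 was 6.51 ± 0.426 in U251MG and 3.33 ± 0.248 in U251TR (SD, n = 3), and 3.58 ± 0.788 in U87MG and 1.69 ± 0.174 in U87TR (SD, n = 3). These are ratios of transcript levels and were not tested. Since ODC1 is part of each of them, they repeat its fall.

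**Figure D3:**
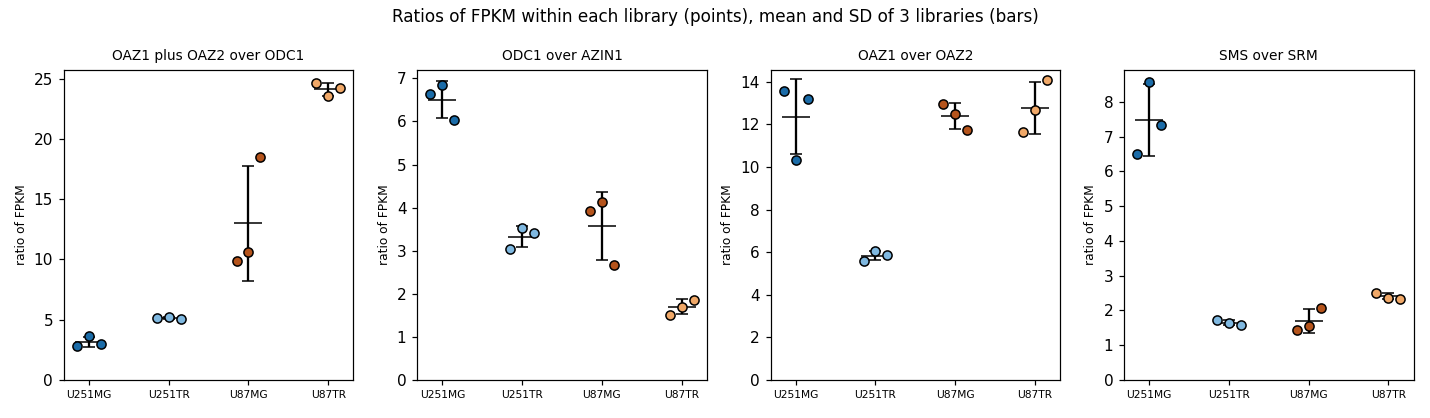
Ratios of FPKM within each library (points) with mean and SD of the 3 libraries of a group (bars). The antizyme to ODC1 ratio rises from about 3.12 in U251MG to 24.12 in U87TR on average, and the OAZ1 to OAZ2 ratio is 5.83 in U251TR against 12.37 to 12.79 in the other groups.

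SAT1, spermidine/spermine N1-acetyltransferase, was higher in U251MG than in the other groups. Its mean level was above 97.5% of genes tested in U251MG, and above 87.9%, 87.4% and 91.7% in U251TR, U87MG and U87TR. The U251MG libraries had 270.94, 155.16 and 263.81 FPKM and the U251TR libraries 73.51, 58.06 and 62.58 FPKM. The lowest U251MG library, replicate 2, was still above all other 9 libraries of the series. The log2 fold change was -1.78 (SE 0.18), a level 29.2% of the parental one, and -2.04 without that replicate. U87MG had 55.88, 54.83 and 69.45 FPKM and U87TR 87.63, 78.7 and 84.61 FPKM. Here the resistant libraries were the higher ones, with no overlap, but the log2 fold change of 0.48 (95% interval 0.08 to 0.88, adjusted p = 0.074) did not pass. The change in U87TR minus that in U251TR was 2.25 on the log2 scale, given with no test. SAT1 was 3.69-fold lower in U87MG than in U251MG, given with no test because it rests on the U251MG libraries behind the choice of SAT1. In order of mean level, U251MG at 230.0 ± 64.9 was followed by U87TR at 83.65 ± 4.54, U251TR at 64.72 ± 7.94 and U87MG at 60.05 ± 8.16 FPKM (SD, n = 3). The ranges of the last 2 groups overlapped.

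SMOX codes for spermine oxidase, which turns spermine into spermidine with release of hydrogen peroxide. It separated the parental lines: 72.79, 29.97 and 65.97 FPKM in U251MG against 6.28, 7.69 and 9.52 FPKM in U87MG, a 6.13-fold lower level in U87MG (adjusted p = 2.45e-06). U251TR had 45.65, 41.45 and 53.82 FPKM and U87TR 7.62, 9.68 and 8.4 FPKM. The log2 fold changes of -0.17 (95% interval -0.75 to 0.42) in U251TR and 0.13 (-0.46 to 0.71) in U87TR did not pass (adjusted p = 0.637 and 0.782). The U251TR value rested on U251MG replicate 2: without it the log2 fold change was -0.56 (adjusted p = 0.00935), and without replicate 1 it was 0.07. SAT1 over SMOX within a library was 4.30 ± 0.773 in U251MG and 1.39 ± 0.224 in U251TR (SD, n = 3). In the U87 lines it was 7.77 ± 0.977 and 9.90 ± 1.69 (SD, n = 3).

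PAOX, the oxidase that acts on acetylated polyamines, was the weakest of the 10 genes. It stood at 0.91, 1.69 and 0.79 FPKM in U251MG and 0.86, 0.97 and 1.2 FPKM in U251TR. U87MG had 0.2, 0.49 and 0.26 FPKM, and U87TR was listed at 0, 0 and 0.06 FPKM. At these levels no fold change is given.

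The changes in the 2 resistant lines differed for 4 of the 8 genes with a test, where 47.6% of all genes tested differed. SMS and OAZ1 had the lower change in U251TR, and SRM and OAZ2 in U87TR. The difference, U87TR minus U251TR, was 0.48 for OAZ1 (SE 0.13, adjusted p = 0.00821), -0.56 for SRM (SE 0.17, adjusted p = 0.015) and -0.63 for OAZ2 (SE 0.11, adjusted p = 0.000803). The SRM call was lost with median-of-ratios scaling (adjusted p = 0.106) and the OAZ1 call with quantile normalization (adjusted p = 0.0555). The median difference over all genes tested was -0.17 on the deposited values and -0.02 with median-of-ratios scaling. Without U251MG replicate 2, AMD1, AZIN1 and SMOX also passed (adjusted p = 0.0207, 0.00255 and 0.0164), each with the lower change in U251TR. The share of all genes that differed without that library is not given.

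Between the parents, 5 of the 8 genes other than SAT1 were lower in U87MG than in U251MG, where 40.1% of all genes tested were lower, and 2 were higher, where 32.2% were. The 2 higher genes were the antizyme genes, OAZ1 at 1.64-fold and OAZ2 at 1.62-fold (adjusted p = 1.43e-05 and 7.08e-06). SMOX, SMS and ODC1 were among the lower ones, as given above. AMD1 and AZIN1 had smaller log2 fold changes of -0.31 and -0.40 (adjusted p = 0.0241 and 0.0289). The AMD1 call was lost in 5 of 15 other settings, among them without U251MG replicate 1 or 3 or U87MG replicate 3 (adjusted p = 0.0898, 0.0693 and 0.102). The AZIN1 call was lost in 7 of 15, among them without U251MG replicate 1 or 3 or U87MG replicate 2 or 3 (adjusted p = 0.0625 to 0.124 over the 7). This comparison and the 2 resistance comparisons share the parental libraries, so their values are not independent.

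SMS and SAT1 lie near each other on the short arm of the X chromosome, so the tested genes around them are given as well. This run of 16 genes, 5 on either side and 4 between, was chosen after the values were seen. Of the 14 neighbours, 6 were lower in U251TR, 2 were higher and 6 did not pass, with a median log2 fold change of 0.05. Over the 492 tested genes of the X chromosome other than SMS and SAT1, 45.1% were lower in U251TR and 96 were higher, with a median of -0.22. Over all genes tested, 19.6% were lower and 33.6% higher there, with a median of 0.10. YY2, a gene that lies within MBTPS2, so that their reads may not be fully separable, had the lowest value among the neighbours, from 8.12 ± 2.13 to 2.95 ± 0.355 FPKM (SD, n = 3; log2 fold change -1.18, adjusted p = 9.77e-05). Between SMS and SAT1, ACOT9 fell from 43.13 ± 7.69 to 26.46 ± 0.304 FPKM (SD, n = 3; adjusted p = 0.000444), while PRDX4, an antioxidant enzyme gene, was 127.6 ± 2.64 and 146.1 ± 9.02 FPKM (SD, n = 3) and did not pass (adjusted p = 0.0537). In U87TR none of the 14 neighbours was lower and 2 were higher. Of the 492 genes of the X chromosome 69 were lower there, which is 14.0%, and 46 were higher. Over all genes tested in U87TR, 17.2% were lower and 10.6% higher. The log2 fold changes of SMS and SAT1 in U251TR were below those of all 14 neighbours. The run was built around these 2 genes with their low values known, so this order is only a description.

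**Figure D4:**
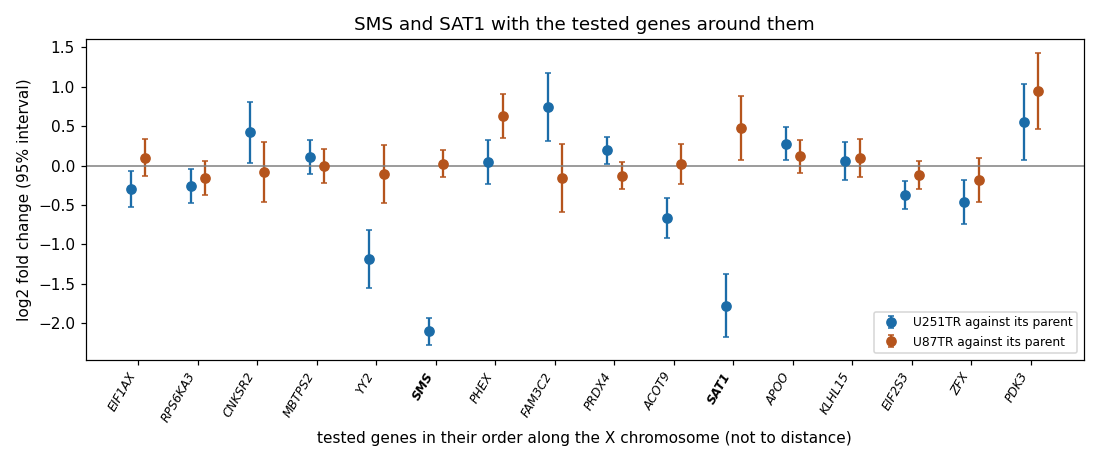
Log2 fold change with 95% interval in U251TR and U87TR against their parents for SMS, SAT1 and the 14 tested genes around them, in gene order along the X chromosome. SMS (-2.10) and SAT1 (-1.78), around which the run was chosen with their values known, are the lowest points in U251TR. The genes between them range from -0.67 to 0.74.

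Genes whose levels followed SAT1 most closely over the 12 libraries were sought among plain symbols with at least 10 FPKM in a group. They were PTHLH, MARK3, KCTD9, KLF5, TACC1 and RGL1, with Pearson correlations of log2(FPKM + 1) from 0.97 to 0.99. The search used the SAT1 values behind its choice, and PTHLH and RGL1 reached 10 FPKM in U251MG alone. PTHLH codes for parathyroid hormone-like hormone. It stood at 80.24, 28.58 and 84.63 FPKM in U251MG, at 4.97 ± 0.376 in U251TR, at 2.90 ± 0.571 in U87MG and at 7.17 ± 0.634 FPKM in U87TR (SD, n = 3). KLF5, a transcription factor gene, was 54.13 ± 9.60, 8.24 ± 0.132, 5.22 ± 0.331 and 12.87 ± 0.878 FPKM in the same order (SD, n = 3). The libraries fall into groups, and these correlations rest largely on U251MG: over the other 9 libraries they ranged from 0.54 to 0.84. Among the polyamine genes, SMS had 0.94 over the 12 libraries and 0.35 over the other 9. ODC1 had 0.66 and -0.93, and SRM -0.17 and -0.96. These are descriptions of 4 groups of libraries, given with no test.

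Beyond the 10 genes, 57 others linked to the pathway were looked up in 6 lists, among them genes that do not act on polyamines. All were in the table, AZIN2 under its older symbol ADC, and 38 were tested. In U251TR 11 rose and 11 fell, and in U87TR 4 rose and 8 fell, shares of all genes being those given above. Of the 38, SLC7A2 and SLC47A1 passed the filter only through the U251 group where each was high, so 1 of the rises and 1 of the falls in U251TR had to differ. The median log2 fold change of the 38 was -0.07 in U251TR and 0.00 in U87TR. The U87TR falls numbered 4 without U87MG replicate 2 or U87TR replicate 1 or 2, 5 without U87MG replicate 1 and 10 without U87MG replicate 3, and the rises numbered 2 without U87TR replicate 2. Shares of all genes in these settings are not given.

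Regulators and partners of the enzymes above formed another list. MYC, of which ODC1 and SRM are known target genes, fell from 174.3 ± 2.52 to 63.49 ± 5.24 FPKM in U251TR and from 34.49 ± 2.94 to 24.44 ± 1.75 FPKM in U87TR (SD, n = 3). Its log2 fold changes were -1.45 (SE 0.09, adjusted p = 7.25e-08) and -0.48 (SE 0.09, adjusted p = 0.00159), and no library of a resistant line overlapped its parent. ODC1 fell in both lines, while SRM did not pass in U251TR and fell in U87TR. Any part of MYC in the levels of ODC1 or SRM was not tested. Of 7 tested genes of this list, 1 rose and 2 fell in U251TR, where 33.6% and 19.6% of all genes tested did. In U87TR 1 rose and 1 fell, where 10.6% and 17.2% of all genes did. PMF1, whose product works with NRF2 on the SAT1 gene, rose 1.43-fold in U251TR (adjusted p = 0.00479), where SAT1 was lower. Reads of PMF1 may be shared with its read-through transcript, so its level is uncertain. KEAP1, the repressor of NRF2, had a log2 fold change of -0.47 there (adjusted p = 0.00338). NFE2L2, the gene of NRF2, rose 1.27-fold in U87TR (adjusted p = 0.0284), a call lost in 6 of 15 other settings, among them without any 1 of the 6 libraries but U87MG replicate 3 (adjusted p = 0.0586 to 0.0884 over the 6). ALOX15, the lipoxygenase gene linked to SAT1 in ferroptosis, was at most 0.06 FPKM in any library and was not tested.

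Hypusination is the modification of the translation factor eIF5A with a group taken from spermidine. Its 4 tested genes were EIF5A and EIF5A2, which code for the factor, and DHPS and DOHH, which code for the enzymes. In U251TR 2 fell and none rose, where 19.6% of all genes tested fell and 33.6% rose. In U87TR 3 fell and none rose, where 17.2% of all genes fell and 10.6% rose. EIF5A went from 626.3 ± 36.2 to 432.2 ± 51.4 FPKM in U251TR and from 668.6 ± 41.3 to 535.5 ± 47.3 FPKM in U87TR (SD, n = 3; adjusted p = 0.000639 and 0.0302). DOHH, the hydroxylase of the last step, had log2 fold changes of -0.59 and -0.44 (adjusted p = 0.0032 and 0.0326). DHPS, the deoxyhypusine synthase gene, went from 77.36 ± 3.89 to 57.98 ± 2.17 FPKM in U87TR (SD, n = 3; adjusted p = 0.000873). The U87TR call of EIF5A was lost in 6 of 15 other settings, among them without U87MG replicate 1 or 2 or U87TR replicate 1 or 2 (adjusted p = 0.0517 to 0.119 over the 6). That of DOHH was lost in 10, among them without any 1 of the 6 libraries but U87MG replicate 3 (adjusted p = 0.052 to 0.139). EIF5A shares nearly all its sequence with EIF5AL1, so the split of reads between them is uncertain.

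Of 8 tested transport genes, 3 rose and 2 fell in U251TR, where 33.6% and 19.6% of all genes tested did. The 3 include SLC47A1, which passed the filter only through U251TR, so its rise carries no weight. In U87TR 2 rose and 1 fell, where 10.6% and 17.2% of all genes did. ATP13A2, a lysosomal exporter of polyamines, moved in opposite directions. It stood at 139.31, 157.12 and 135.03 FPKM in U251MG and 77.15, 77.56 and 85.44 FPKM in U251TR (log2 fold change -0.84, adjusted p = 3.25e-06). In U87MG it was 25.75, 26.7 and 28.92 FPKM and in U87TR 36.04, 35.74 and 35.33 FPKM (log2 fold change 0.39, adjusted p = 0.00337). The difference between these changes passed (1.22, SE 0.11, adjusted p = 4.26e-06). SLC47A1, an exporter of organic cations, went from 1.09 ± 0.266 to 13.68 ± 0.571 FPKM in U251TR (SD, n = 3) and was at most 0.37 FPKM in any U87 library. It passed the filter through U251TR, so its test is not given. CAV1, the caveolin gene tied to polyamine uptake, fell from 142.6 ± 29.2 to 55.44 ± 4.09 FPKM in U251TR (SD, n = 3; adjusted p = 1.63e-05). ATP13A3, a transporter of the cell surface and endosomes, fell from 126.1 ± 3.95 to 69.53 ± 8.07 FPKM in U87TR (SD, n = 3; adjusted p = 0.00184). SLC18B1, a vesicular polyamine transporter, rose 1.31-fold in U87TR (adjusted p = 0.0127, and 0.0561 without U87TR replicate 2).

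Of 7 tested genes listed under arginine and ornithine supply, 4 rose and 2 fell in U251TR, where 33.6% and 19.6% of all genes tested did. The 4 include AZIN2, an antizyme inhibitor gene rather than a supply gene. The 2 include SLC7A2, which passed the filter only through U251MG, so its fall carries no weight. In U87TR 1 fell, where 17.2% of all genes did. ASS1, argininosuccinate synthase, rose from 58.54 ± 14.4 to 158.3 ± 9.44 FPKM in U251TR (SD, n = 3; adjusted p = 1.89e-05). In U87TR it went from 45.33 ± 7.23 to 29.56 ± 3.10 FPKM (SD, n = 3; adjusted p = 0.0208). That call was lost in 6 of 15 other settings, among them without U87MG replicate 2 or 3 or U87TR replicate 1 or 2 (adjusted p = 0.0524 to 0.0773). AZIN2, the second antizyme inhibitor, rose from 1.55 ± 0.351 to 4.62 ± 0.718 FPKM in U251TR (SD, n = 3; adjusted p = 3.42e-05). SLC7A2, a carrier of cationic amino acids, had means of 2.12 and 0.853 FPKM in U251MG and U251TR and was listed at 0 in all 6 U87 libraries. It passed the filter through U251MG alone, so its test is not given.

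Of 8 tested genes of the methionine cycle and salvage, 1 rose and 2 fell in U251TR, where 33.6% and 19.6% of all genes tested did. In U87TR 2 fell, where 17.2% of all genes did. MTAP, which recovers methionine from the methylthioadenosine that spermidine and spermine synthesis leave behind, rose from 65.35 ± 2.27 to 113.0 ± 1.67 FPKM in U251TR (SD, n = 3; adjusted p = 3.94e-06). Every U87MG library listed it at 0, and the U87TR libraries had 0, 0.01 and 0 FPKM. AHCY, S-adenosylhomocysteine hydrolase, had log2 fold changes of -0.36 in U251TR (adjusted p = 0.00268) and -0.27 in U87TR (adjusted p = 0.0247). The latter call was lost in 7 of 15 other settings, among them without U87MG replicate 1 or 2 or U87TR replicate 1 or 2 (adjusted p = 0.0516 to 0.0925). ADI1, a dioxygenase of the salvage route, had a log2 fold change of -0.45 in U251TR (adjusted p = 0.0155, and 0.0629 without U251TR replicate 1). APIP, a dehydratase of the same route, went from 29.37 ± 2.11 to 19.35 ± 1.51 FPKM in U87TR (SD, n = 3; adjusted p = 0.0055).

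The list of other catabolism had 4 tested genes, ALDH9A1, SAT2, MAOA and HNMT, and not all of them are specific to polyamines. In U251TR 2 rose and 1 fell, where 33.6% and 19.6% of all genes tested did. HNMT did not pass in either line. In U87TR 1 rose, where 10.6% of all genes did. ALDH9A1, the aldehyde dehydrogenase that acts on aminoaldehydes from polyamine breakdown, rose in both lines. It went from 27.7 ± 1.34 to 51.07 ± 1.04 FPKM in U251TR and from 19.61 ± 0.175 to 49.09 ± 3.02 FPKM in U87TR (SD, n = 3; adjusted p = 1.03e-06 and 1.05e-07). SAT2, a relative of SAT1, stood at 80.87, 85.96 and 78.26 FPKM in U251MG and 54.17, 63.07 and 61.98 FPKM in U251TR (log2 fold change -0.45, adjusted p = 0.00719). SAT2 did not pass in U87TR (log2 fold change -0.24, adjusted p = 0.159, and 0.018 without U87MG replicate 3). MAOA, monoamine oxidase A, was 0.870 FPKM in U251MG and 1.37 FPKM in U251TR on average (adjusted p = 0.0224). This call was lost in 8 of 14 other settings, among them without U251MG replicate 1 or 3 or U251TR replicate 1 or 3 (adjusted p = 0.0526 to 0.63).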

How the data were processed

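Gene expression was measured by RNA sequencing in 12 libraries, 3 per cell line. Per the submitters' processing notes, STAR 2.5.2b and RSEM 1.2.31 were used, and those notes name hg19 while the design text names hg38. The authors deposited 1 table of values by gene symbol, taken here to be FPKM as made by the authors from reads assigned to genes. The unit is not given in the sources used here and was inferred, because the values of a library summed to 696371 to 786642 and, times gene length, to 0.911 to 0.976 of the total that FPKM would give (19974 symbols matched to transcript lengths).

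From these values, 27 rows with symbols turned into dates were left out, and the 15449 genes that reached 1 FPKM in 3 or more libraries were kept. All 12 libraries entered 1 model of group means on log2(FPKM + 1), with limma 3.58.1 in R 4.3.3, with a variance trend and robust moderation. It compared each resistant line with its parent, the change in U87TR with that in U251TR, and the parents with each other. Tests were two-sided, with Benjamini-Hochberg adjustment over all genes tested and a threshold of 0.05. A gene "rose" or "fell" when it passed. The fit was tested on simulated data. The pseudocount makes fold changes of weak genes too small.

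The members and lists were chosen with earlier results of these data known. Named genes were the 10 members, up to 3 called genes per list and resistance comparison with the largest change, and MTAP, MYC, ALOX15, SAT2 and EIF5A. HNMT and EIF5A2 were named to complete the tested genes of their lists. The 6 genes most like SAT1 had the highest correlations over the 12 libraries. YY2, ACOT9 and PRDX4 were singled out after their values were seen. Alternatives left out each library, changed the pseudocount (0.1 or 5), dropped the filter or raised it to 5 FPKM, rescaled by median of ratios, TPM or quantiles, added a replicate block, fitted each comparison by itself, or called only changes of at least 2-fold. Replicate numbers did not pair the libraries.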

Additional observations from a re-analysis of the deposited data

Results flagged for a closer look

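The resistance changes differed between the lines for 4 of the 8 polyamine genes with a test, where 47.6% of all genes tested differed. As log2 change in U87TR minus that in U251TR, the difference for SMS was 2.13, for OAZ1 0.48, for SRM -0.56 and for OAZ2 -0.63, each by the test of the difference in the fit of all 12 libraries. For SAT1 it was 2.25: every U251TR library was below every U251MG library and every U87TR library above every U87MG library, and this difference was not tested because SAT1 was chosen with its fall in U251TR known.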

How the results depend on the processing

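With at least 2-fold calls, 2 members were lower and 0 higher in U251TR, 1 was lower in U87TR, 1 was higher and 0 lower for the difference between the lines, and 0 were higher in U87MG than in U251MG. Shares of all genes are not given for 2-fold calls, a library left out, a replicate block or the fit of 6 libraries alone. Those counts have no background. In U87TR 1 member, SAT1, was higher with a replicate block and in the fit of the 6 libraries alone (adjusted p = 0.0359 and 0.0141). With median-of-ratios scaling 1 member was lower for the difference, where 24.3% of all genes tested were lower. Over single libraries left out, members higher for the difference numbered 2 to 5, with 5 without U251MG replicate 2. Members lower in U251TR numbered 4 to 6, and in U87TR 2 to 3. Of the 38 other pathway genes tested, 5 were lower in U87TR with median-of-ratios scaling and 5 with quantile normalization. Of all genes tested, 14.8% and 13.6% were lower there. Over single libraries left out, 4 to 10 of the other pathway genes were lower and 2 to 5 higher. These settings of the other genes and of the neighbours were added after the data were seen. Values that did not pass and whose sign turned were those of SRM in U251TR (-0.075 with median-of-ratios scaling, and -0.068 to 0.144 over single libraries left out) and, over single libraries left out, SMOX in U251TR (-0.559 to 0.067), SMS (-0.038 to 0.102) and SMOX (-0.005 to 0.261) in U87TR, and the ODC1 difference (-0.093 to 0.334). SMOX in U251TR passed at its lowest value, without U251MG replicate 2. Over all settings 181 counts of calls stayed within 1.5 times and 17 moved. Of the values of single genes and counts of neighbours 991 kept their direction and side of the threshold or stayed within 1.5 times, 70 lost a call, 17 gained one and 9 moved. ODC1, AMD1, SMS, OAZ1 and OAZ2 kept their calls in U251TR in all 15 other settings, and ODC1 and SRM in U87TR; the cause of the changes was not tested. Replicate numbers did not pair the libraries: same-numbered libraries had correlations of deviations of -0.05, 0.12 and 0.02 in U251, and -0.06, 0.06 and -0.05 in U87. Depth is not known from FPKM, so weak genes such as PAOX have no stated counting error.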
